A study of Mus musculus with 12 samples.

Results

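Transcription regulators of the myelin program of Schwann cells, 9 in all, were followed by their symbols in the raw count table of mouse sciatic nerve: Egr2, Pou3f1, Pou3f2, Sox10, Nab1, Nab2, Tead1, Yy1 and Nfatc4. All 9 symbols were found, on 10 of the 38087 lines of the table, since Tead1 stands on 2 lines. All 10 lines were among the 22384 gene models kept after low counts were removed. The smallest count of a member in any library was 102, for Pou3f2.

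The mutant mice, here called dKO, were Dhh-Cre+:Tfebflox/flox;Tfe3KO: Cre is driven by Dhh, which Schwann cells and their precursors express, and removes Tfeb from them, and Tfe3 is lost in every cell of the animal. Control mice were Dhh-Cre-:Tfebflox/flox;Tfe3+, so they carried the same floxed Tfeb alleles without Cre and kept Tfe3. Tfeb and Tfe3 encode related transcription factors of lysosome and autophagy genes. Each genotype was sampled 5 days after transection of the sciatic nerve (5DPI, the distal stump without the tissue next to the cut) and in intact nerve from the opposite side of injured mice, with 3 libraries in each of the 4 groups. The design text calls the 3 libraries of a group biological replicates, and ages are not given in the labels. Per the labels, the epineurium, the outer sheath, was taken off intact nerves. The labels state this for intact nerves alone, so injury and that step cannot be told apart.

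Myelinating Schwann cells build their program in steps. SOX10 is present through the whole lineage and, with the POU factors POU3F1 (also called OCT6 or SCIP) and POU3F2 (BRN2), switches on Egr2 when a cell contacts a large axon. EGR2 (KROX20) then acts with SOX10 on the genes of the myelin sheath, and the NAB proteins bind EGR proteins as co-regulators. When a nerve is cut, Schwann cells distal to the cut leave the myelin program and take up a repair state led by JUN.

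Promoter windows of 6 of the 9 members were found in RefSeq (GRCm38.p6), each from 250 bases before to 50 bases after an annotated start. A window of Nab1 and 1 of the 5 windows of Egr2 are shown as examples of windows that hold the recognition letters of other members. Capitals mark the EGR motif GCGNGGGCG on either strand in the Nab1 window, which lies at chr1:52500399-52500698 on the minus strand, and the POU octamer ATGCAAAT in the Egr2 window, which lies at chr10:67537619-67537918 on the plus strand.
Nab1: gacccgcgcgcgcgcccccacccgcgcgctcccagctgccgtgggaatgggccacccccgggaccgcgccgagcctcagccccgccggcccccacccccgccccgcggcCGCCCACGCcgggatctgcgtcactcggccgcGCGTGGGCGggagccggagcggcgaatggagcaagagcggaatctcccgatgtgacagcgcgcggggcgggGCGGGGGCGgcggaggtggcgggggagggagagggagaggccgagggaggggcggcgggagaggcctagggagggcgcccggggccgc
Egr2: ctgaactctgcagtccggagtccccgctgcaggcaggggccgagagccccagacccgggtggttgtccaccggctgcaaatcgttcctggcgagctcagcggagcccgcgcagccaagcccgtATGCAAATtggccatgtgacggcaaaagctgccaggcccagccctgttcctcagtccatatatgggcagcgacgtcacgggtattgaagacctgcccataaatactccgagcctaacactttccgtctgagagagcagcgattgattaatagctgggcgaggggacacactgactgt
The Nab1 window held 3 EGR matches, with first bases at -141, -109 and -38 from the start, and 81.7% of its bases were G or C. Of 32851 RefSeq windows of the same length, 1824 (5.55%) held at least 1 such match. The octamer in the Egr2 window shown began at -127, and 570 windows (1.74%) held one. Of the 5 Egr2 windows 3 overlap and hold this same octamer, and the other two hold none. The TEAD letters GGAATG (14.7% of all windows) lay once in the Nab1 window, and the NFAT letters GGAAA (61.3%) once in the Egr2 window shown. An Egr2 window without the octamer held 1 TEAD and 3 NFAT matches, and the Nfatc4 window held 3 NFAT matches. These matches are letters in a window and were not tested as binding sites. Pou3f2 had 1 EGR match at -8, and no window of a member held the SOX letters ACAAAG (18.7% of all windows) or the YY1 letters AAGATGGC (2.75%).

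Library totals ran from 15430999 to 35845371 counts. Values below are CPM (counts scaled to a common library total) with TMM, edgeR's scaling factor, and a gene is called where the adjusted p of edgeR's quasi-likelihood test was under 0.05. Control nerve at 5DPI replicate 1 had 10712 counts of Xist, a transcript of female cells, against at most 23 in each other library. Control 5DPI replicate 4 and all 3 dKO 5DPI libraries held reads on 174 to 382 olfactory receptor genes at equal depth, against 53 to 78 in the other 8 libraries, so they form a second library set that contains every dKO 5DPI library. Control intact replicate 2 also stood apart: 8.46% of tested genes lay below 0.5 times both other control intact libraries there, against 1.74% and 2.26% for replicates 1 and 3. The whole-gene level of Tfe3 in dKO against control gave a log2 change of -0.24 at 5DPI (SE 0.10, adjusted p = 0.126, edgeR) and -0.39 in intact nerve (SE 0.10, adjusted p = 0.841), and that of Tfeb differed by 0.06 and -0.45 (adjusted p = 0.883 and 0.856). These counts cover whole genes and cannot show a deleted exon.

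Sox10, the lineage factor, was read on chromosome 15 (GRCm38, 79154908 to 79165240, minus strand). It had 205, 196 and 144 CPM in dKO nerve at 5DPI, 391, 291 and 223 CPM in control nerve at 5DPI, 611, 538 and 643 CPM in dKO intact nerve, and 487, 549 and 503 CPM in control intact nerve. All injured libraries lay below all intact ones, and at 5DPI every dKO library lay below every control library. In dKO nerve Sox10 fell by 1.72 on the log2 scale with injury (SE 0.18, adjusted p = 3.92e-06), and in control nerve by 0.77 (SE 0.18, adjusted p = 0.00267). At 5DPI the dKO level was lower than control by a log2 change of -0.73 (SE 0.18, adjusted p = 0.0162).

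Egr2, the master regulator of the myelin genes, lies on chromosome 10 (67535475 to 67542188, plus strand). It had 59.6, 56.4 and 37.4 CPM in dKO nerve at 5DPI, 18.0, 19.9 and 14.2 CPM in control nerve at 5DPI, 296, 250 and 242 CPM in dKO intact nerve, and 183, 300.2 and 232 CPM in control intact nerve. Injured nerve of both genotypes had far less Egr2 than intact nerve. Among injured libraries each dKO one held more than each control one, and the intact groups overlapped. Egr2 fell by 2.36 in dKO nerve (SE 0.21, adjusted p = 1.12e-06) and fell by 3.78 in control nerve (SE 0.22, adjusted p = 1.58e-08, 13.7-fold lower). At 5DPI Egr2 was 2.95-fold higher in dKO than in control nerve, a log2 change of 1.56 (SE 0.21, adjusted p = 0.000319).

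Pou3f1 and Pou3f2 encode POU factors that act before and together with EGR2. Pou3f1 (chromosome 4, 124656807 to 124660655, plus strand) had 25.3, 29.5 and 27.9 CPM in dKO nerve at 5DPI, 55.5, 44.4 and 38.4 CPM in control nerve at 5DPI, 7.85, 9.94 and 10.4 CPM in dKO intact nerve, and 14.7, 14.3 and 12.5 CPM in control intact nerve. It was the only member called higher after injury in either genotype, and its dKO libraries lay below the control libraries in both states. Pou3f1 was higher after injury by 1.55 in dKO (SE 0.16, adjusted p = 2.59e-06) and by 1.74 in control nerve (SE 0.16, adjusted p = 5.31e-07, 3.33-fold). At 5DPI dKO was lower than control by a log2 change of -0.74 (SE 0.15, adjusted p = 0.00606). An antisense gene, Gm2164, shares 8.57% of the exon bases of Pou3f1, and whether counting used strand is not given in the sources used here.

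Pou3f2 (chromosome 4, 22482780 to 22488366, minus strand) moved the other way with injury. It had 5.98, 7.61 and 6.99 CPM in dKO nerve at 5DPI, 4.85, 3.21 and 4.81 CPM in control nerve at 5DPI, 11.9, 14.8 and 16.7 CPM in dKO intact nerve, and 12.2, 19.6 and 12.8 CPM in control intact nerve. It fell by 1.08 in dKO (SE 0.23, adjusted p = 0.00173) and by 1.79 in control nerve (SE 0.24, adjusted p = 2.25e-05). At 5DPI the 3 dKO libraries lay above the 3 control libraries, but the log2 change of 0.68 (SE 0.24) was not called with edgeR (adjusted p = 0.0779) and was called with DESeq2 (0.71, adjusted p = 0.0420).

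Nab1 and Nab2 encode the EGR co-regulators. Nab1 (chromosome 1, 52457294 to 52500679, minus strand) had 42.5, 45.2 and 41.8 CPM in dKO nerve at 5DPI, 58.5, 48.4 and 47.1 CPM in control nerve at 5DPI, 100.0, 99.9 and 99.3 CPM in dKO intact nerve, and 93.6, 133 and 104 CPM in control intact nerve. Nab2 (chromosome 10, 127660918 to 127668568, minus strand) had 65.1, 71.0 and 60.3 CPM in dKO nerve at 5DPI, 73.4, 64.5 and 51.9 CPM in control nerve at 5DPI, 107, 98.6 and 88.6 CPM in dKO intact nerve, and 91.9, 96.7 and 91.7 CPM in control intact nerve. Both were lower in every injured library than in every intact one. Nab1 fell by 1.21 in dKO (SE 0.13, adjusted p = 3.12e-06) and by 1.11 in control nerve (SE 0.13, adjusted p = 5.11e-06). Nab2 fell by 0.58 in dKO (SE 0.12, adjusted p = 0.00147) and by 0.56 in control nerve (SE 0.12, adjusted p = 0.00161). Exons of Nab2 overlap those of the opposite-strand genes Stat6, Nemp1 and Gm16229, the last over 35.7% of its exon bases.

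**Figure D1:**
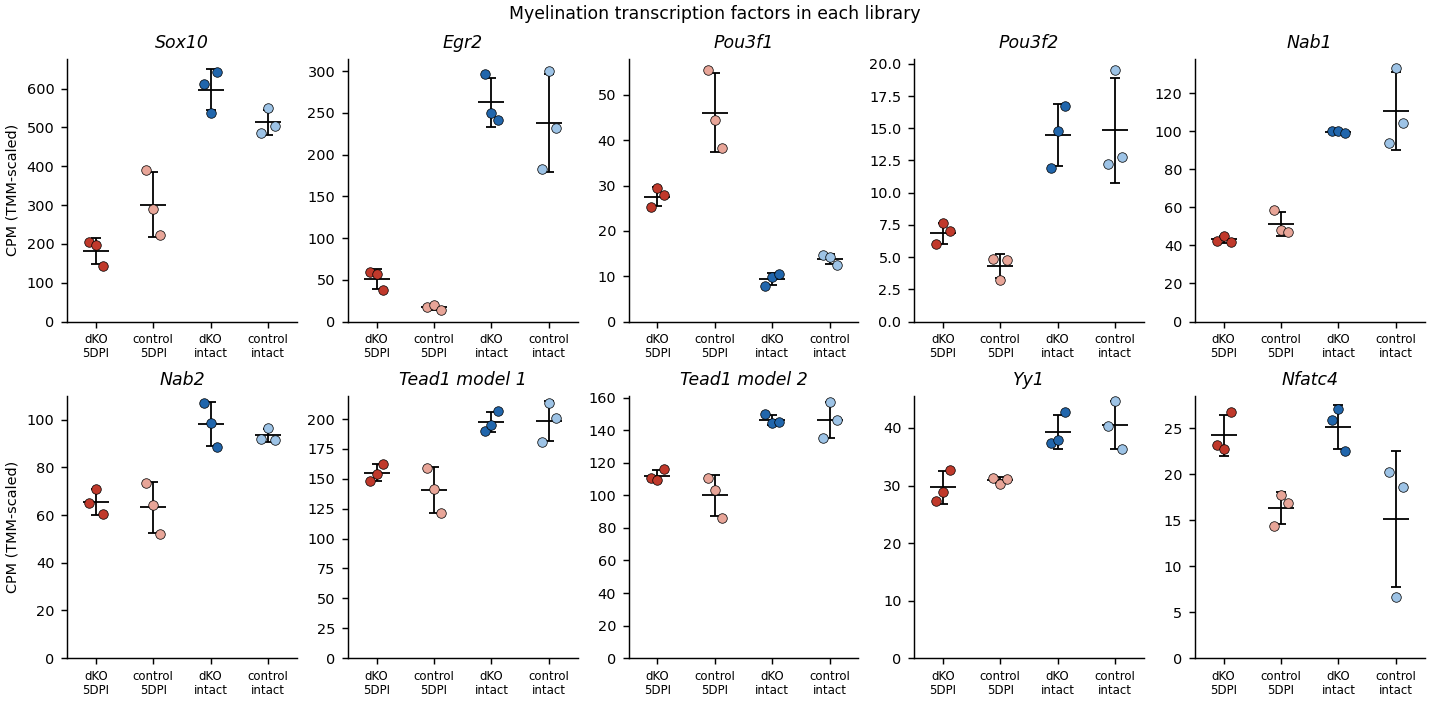
Each panel shows 1 gene or, for Tead1, 1 line of the table; the vertical axis is TMM-scaled CPM, points are libraries, and bars give the mean and SD of 3 libraries. Egr2 lies at 37.4 to 59.6 CPM in dKO and 14.2 to 19.9 CPM in control nerve at 5DPI, and Pou3f1 is the panel in which injured nerve is above intact nerve in both genotypes.

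Tead1 encodes a DNA-binding partner of YAP and TAZ, and lies on chromosome 7 (112679318 to 112906807, plus strand). The first line of the table with this symbol ran from 149 to 163 CPM in dKO nerve at 5DPI, 121 to 159 CPM in control nerve at 5DPI, 190.4 to 206 CPM in dKO intact nerve and 181 to 213 CPM in control intact nerve. The second line ran alongside it, with 0.695 to 0.789 times its counts over the 12 libraries, and which transcripts the lines stand for is not given in the files. The first line fell by 0.35 in dKO (SE 0.11, adjusted p = 0.0184) and by 0.49 in control nerve (SE 0.11, adjusted p = 0.00178). The second fell by 0.39 in dKO (SE 0.10, adjusted p = 0.00725) and by 0.55 in control nerve (SE 0.10, adjusted p = 0.000502).

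Yy1, a zinc finger factor needed for peripheral myelination in mice, lies on chromosome 12 (108792973 to 108820148, plus strand). It had 27.3, 28.9 and 32.8 CPM in dKO nerve at 5DPI, 31.3, 30.3 and 31.2 CPM in control nerve at 5DPI, 37.4, 38.0 and 42.7 CPM in dKO intact nerve, and 40.4, 44.7 and 36.3 CPM in control intact nerve. Injured libraries lay below intact ones in each genotype, with a log2 change of -0.41 in dKO (SE 0.11, adjusted p = 0.00937) and -0.39 in control nerve (SE 0.11, adjusted p = 0.0116). Nfatc4, a calcineurin-dependent factor that works with SOX10 on Egr2 in mouse Schwann cells, lies on chromosome 14 (55823144 to 55833943, plus strand). It had 23.2, 22.7 and 26.8 CPM in dKO nerve at 5DPI, 14.4, 17.7 and 16.8 CPM in control nerve at 5DPI, 25.8, 27.0 and 22.5 CPM in dKO intact nerve, and 20.2, 6.65 and 18.6 CPM in control intact nerve. It was the only member with no call after injury: the log2 change was -0.06 in dKO (SE 0.29, adjusted p = 0.893) and 0.10 in control nerve (SE 0.29, adjusted p = 0.800). The lowest value belongs to control intact replicate 2, the library that stood apart, and without it the control change is -0.30 (adjusted p = 0.119).

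Counted together, 8 of the 9 symbols were called after injury in dKO nerve, 1 higher and 7 lower, against 44.7% of all tested genes (22% higher and 22.6% lower). The counts were the same in control nerve, where 46.8% of all genes were called (24.4% higher and 22.4% lower). The median log2 change of the 10 lines was -0.50 in dKO and -0.56 in control nerve, beside 0.05 and 0.09 over all tested genes. The groups did not overlap for 8 of 9 symbols in either genotype, which held for 61% of all genes in dKO and 53.3% in control nerve. With upper-quartile scaling 7 symbols were called in dKO nerve, and the split of all called genes there was 6246 higher and 4044 lower, against 4930 and 5067 with TMM. A term for the library set left 5 symbols called in dKO nerve, with a smaller fall of Sox10 (-1.10, adjusted p = 0.0101): Nab2 (-0.17, adjusted p = 0.570), Yy1 (-0.43, adjusted p = 0.175) and both lines of Tead1 (-0.04 and -0.07, adjusted p = 0.917 and 0.803) were then not called. The first line of Tead1 was also not called in dKO nerve without dKO intact replicate 4 or dKO 5DPI replicate 2 or 3.

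At 5DPI 3 of the 9 symbols differed between genotypes, Egr2 higher and Pou3f1 and Sox10 lower in dKO nerve. Over all genes 12.1% were called (3.12% higher and 8.97% lower), and upper-quartile scaling changed that split to 1075 higher and 1345 lower, against 699 and 2008. The groups did not overlap for 6 symbols, Egr2, Pou3f1, Sox10, Pou3f2, Nab1 and Nfatc4, while 30.5% of all genes had groups that did not overlap. Of these, Nab1 gave a log2 change of -0.25 (SE 0.13, adjusted p = 0.218), or -0.15 without control 5DPI replicate 1 and -0.12 with the set term, and Nfatc4 gave 0.57 (SE 0.29, adjusted p = 0.235). Nab2 (0.05), both lines of Tead1 (0.14 and 0.16) and Yy1 (-0.06) had overlapping groups. With the set term the value was 0.34 for Nab2 (adjusted p = 0.360) and 0.36 and 0.38 for the lines of Tead1 (adjusted p = 0.277 and 0.175), and the first line of Tead1 ran from 0.03 without control 5DPI replicate 4 to 0.23 without control 5DPI replicate 1. The median over the 10 lines was 0.09, beside -0.02 over all genes.

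How firmly these 3 calls stand differs between the genes. Egr2 was called with each library left out in turn (log2 change 1.43 to 1.73) and with a term for the library set (1.85, adjusted p = 0.00886). Every set-term value between genotypes at 5DPI rests on 1 control library, replicate 4, the only control in the second set. The CPM of these libraries show that same comparison. This control library had 14.2 CPM of Egr2, below the 37.4 to 59.6 CPM of the dKO libraries. It had 38.4 CPM of Pou3f1 and 223 CPM of Sox10, above the dKO ranges of 25.3 to 29.5 and 144 to 205 CPM. Pou3f1 was called with each library left out but not with the set term (-0.48, adjusted p = 0.322). Sox10 was not called without control 5DPI replicate 1 (-0.50, adjusted p = 0.0727), without dKO 5DPI replicate 4 (-0.60, adjusted p = 0.0652), in a fit of only the compared groups (adjusted p = 0.0574) or with the set term (-0.29, adjusted p = 0.660). In that fit of 6 libraries Nfatc4 was called (0.60, adjusted p = 0.0339).

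In intact nerve 0 of the 9 symbols were called between genotypes by edgeR, DESeq2 or limma-voom. Of all 22384 genes edgeR called 1 (0.00447%), DESeq2 12 and limma-voom 0, and 1299 had an unadjusted p under 0.05. Among the members only Pou3f1 and Nfatc4 had groups that did not overlap, which held for 14.6% of all genes. Pou3f1 gave a log2 change of -0.56 (SE 0.16, unadjusted p = 0.00336, adjusted p = 0.841), and Nfatc4 gave 0.73 (SE 0.29, adjusted p = 0.850). Without control intact replicate 2, where Nfatc4 had 6.65 CPM, the value for Nfatc4 was 0.39. The change of Egr2 was 0.14 (SE 0.20, adjusted p = 0.947) and that of Sox10 0.22 (SE 0.18, adjusted p = 0.898).

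The test of the difference between the injury changes, dKO minus control, called Egr2 alone of the 9 symbols, where 2.9% of all genes were called (0.737% higher and 2.17% lower). Egr2 fell less with injury in dKO nerve, by a log2 difference of 1.42 (SE 0.28, adjusted p = 0.0158), or 2.68-fold. The call was lost without dKO intact replicate 4 (1.36, adjusted p = 0.0502) or dKO 5DPI replicate 3 (1.35, adjusted p = 0.0536) and with the set term (1.72, adjusted p = 0.0564), and the difference ran from 1.25 to 1.64 over the 12 libraries left out in turn. Sox10 gave a difference of -0.95 that edgeR did not call (SE 0.25, adjusted p = 0.0612) and DESeq2 did (-0.91, adjusted p = 0.0247). With the set term the difference was -0.51 (adjusted p = 0.590). Without control 5DPI replicate 4 edgeR called it (-1.14, adjusted p = 0.0115), but that library is the only control in the second set, so without it genotype and library set cannot be told apart at 5DPI. The difference was 0.71 for Pou3f2 (SE 0.33, adjusted p = 0.304) and -0.18 for Pou3f1 (SE 0.22, adjusted p = 0.760).

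**Figure D2:**
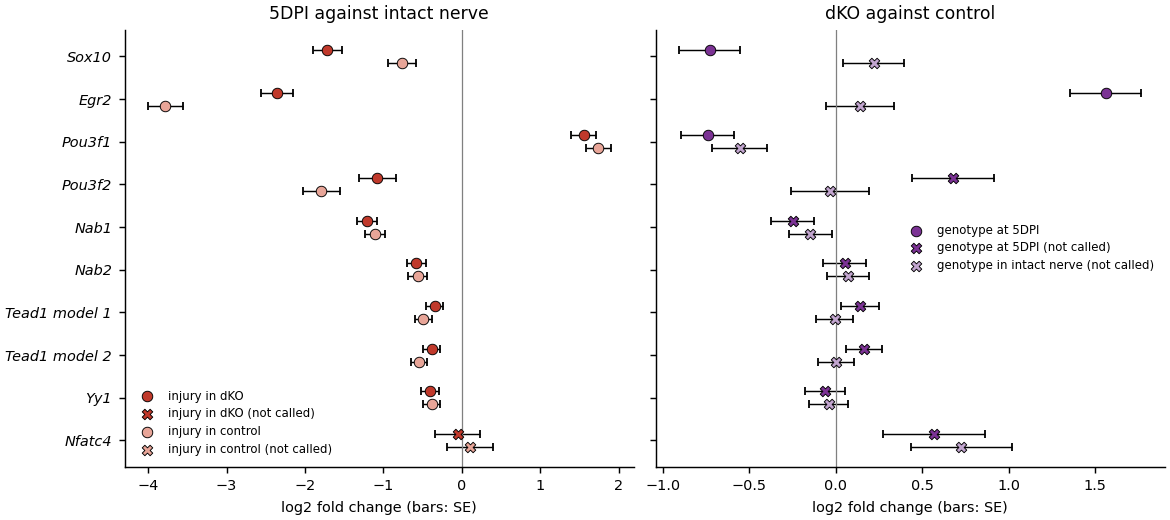
Log2 fold changes of the members with their SE, 5DPI against intact nerve in each genotype (left) and dKO against control in each state (right); circles are called by edgeR and crosses are not. Egr2 stands at -2.36 in dKO and -3.78 in control nerve on the left, and at 1.56 on the right, opposite to Sox10 (-0.73) and Pou3f1 (-0.74).

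Ratios of counts within a library compare factors of the same sample without a scaling factor. Egr2 had 0.291, 0.287 and 0.260 counts per count of Sox10 in dKO nerve at 5DPI, against 0.0460, 0.0684 and 0.0636 in control nerve at 5DPI. In intact nerve the ratio was 0.442 ± 0.058 in dKO and 0.462 ± 0.085 in control (SD, n = 3 each), with overlapping ranges. The injured dKO libraries lay between the injured control libraries and the intact ones. Pou3f1 per Sox10 was 0.156 ± 0.035 in dKO and 0.156 ± 0.015 in control nerve at 5DPI (SD, n = 3 each), so those ranges overlapped. The mean log2 CPM of the Schwann cell markers was also used in place of Sox10. The log2 ratio of Egr2 at 5DPI was then 2.27 higher in dKO than in control nerve, beside 2.26 with Sox10. Both denominators were lower in dKO at 5DPI, Sox10 by a log2 change of -0.73 and the markers with a median of -0.77. Egr2 by itself differed by 1.56. Pou3f1 per Egr2 was 0.425, 0.523 and 0.745 in dKO nerve at 5DPI, against 3.09, 2.23 and 2.71 in control nerve at 5DPI. In each injured control library Pou3f1 counts exceeded Egr2 counts, and in each injured dKO library they did not. An exact permutation test of 3 libraries against 3 cannot give a p under 0.1, and none is given for these ratios.

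**Figure D3:**
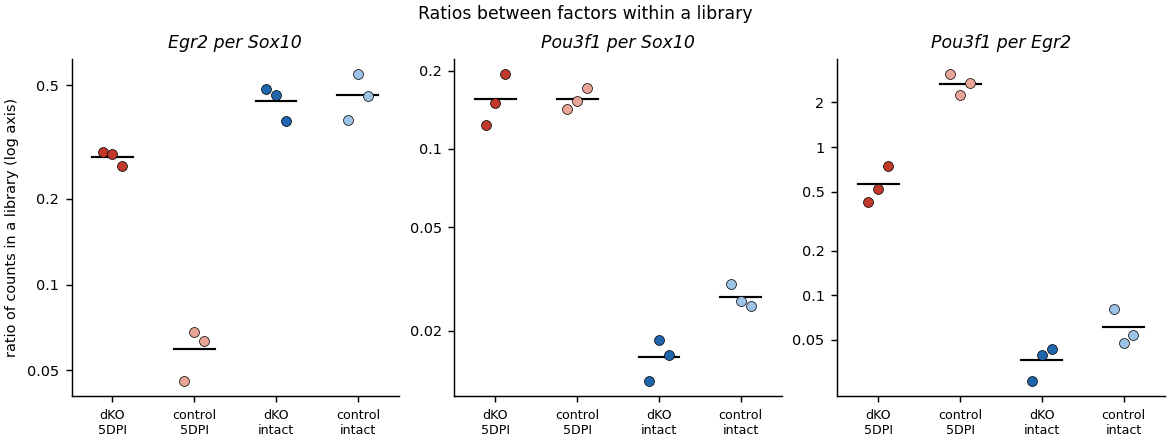
Ratio of counts of a pair of genes in each library (log axis), with points for libraries and a line for the mean of 3. The Egr2 per Sox10 ratio of dKO nerve at 5DPI (0.260 to 0.291) lies between control nerve at 5DPI (0.0460 to 0.0684) and intact nerve.

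Per kilobase of exon, which allows levels of different genes to be compared, Sox10 was the highest of the 8 members with 1 line in every group. In dKO nerve at 5DPI the mean level was 59.5 CPM per kb for Sox10, then 22.3 for Nab2, 15.1 for Egr2, 10.5 for Nab1, 7.17 for Pou3f1, 4.62 for Yy1, 4.17 for Nfatc4 and 1.23 for Pou3f2, where Egr2 overlapped with Nab1 and Yy1 with Nfatc4. In control nerve at 5DPI the order was Sox10 (98.8), Nab2 (21.5), Nab1 (12.5), Pou3f1 (11.97), Egr2 (5.10), Yy1 (4.82), Nfatc4 (2.81) and Pou3f2 (0.768), where Nab1 overlapped with Pou3f1 and Egr2 with Yy1. Egr2 stood above Pou3f1 in injured dKO nerve and below it in injured control nerve, with no overlap of the ranges in either. In dKO intact nerve Sox10 (196 CPM per kb) and Egr2 (77.3) led, and Pou3f1 was last (2.44, overlapping with Pou3f2 at 2.59). In control intact nerve Sox10 (168) and Egr2 (70.2) led as well, and Pou3f1 (3.60), Pou3f2 (2.66) and Nfatc4 (2.61) overlapped at the low end. Exon lengths are of GENCODE M21, and the annotation used for counting is not given in the sources used here.

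Of 18 myelin genes described as targets of EGR2 and SOX10, 16 fell and 1 rose in dKO nerve (median log2 change -4.33), and all 18 fell in control nerve (-5.73). At 5DPI 12 were higher and 1 lower in dKO than in control nerve (median 1.08), 0 were called in intact nerve, and the difference of injury changes was called for 12, with a value above 0 for each (median of the 18 genes 1.21, beside -0.03 over all genes). Over all genes 22.6% were called lower and 22% higher with injury in dKO nerve, and 22.4% lower in control nerve. Between genotypes at 5DPI 3.12% of all genes were higher and 8.97% lower in dKO, and 0.737% had a called difference above 0. With the set term 10 of the 18 targets were higher at 5DPI. Mag, a glycoprotein of the inner myelin surface, had 54.5 ± 5.74 CPM in dKO and 6.69 ± 1.19 CPM in control nerve at 5DPI, and 448 ± 10.7 CPM in dKO and 398 ± 48.6 CPM in control intact nerve (SD, n = 3 each). Its log2 change between genotypes at 5DPI was 3.03 (SE 0.14, adjusted p = 2.84e-08). Prx, a scaffold protein of the Schwann cell membrane, had 331 ± 27.6 CPM in dKO and 44.8 ± 4.71 CPM in control nerve at 5DPI (log2 change 2.89, SE 0.12, adjusted p = 1.27e-08). The junction gene Cldn19 differed by 2.27 (adjusted p = 8.25e-08). Ugt8a, an enzyme of myelin lipid synthesis, was the 1 target lower in dKO at 5DPI (-0.63, adjusted p = 0.0344), and Gjb1, the connexin of myelinating Schwann cells, was the 1 that rose with injury in dKO nerve (0.71, adjusted p = 0.00311). Gjb1 had 269 ± 9.08 CPM in dKO and 124 ± 33.9 CPM in control nerve at 5DPI, and 165 ± 18.3 CPM in dKO and 176 ± 24.7 CPM in control intact nerve (SD, n = 3 each). Ugt8a and Gjb1 were named after their values were seen.

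**Figure D4:**
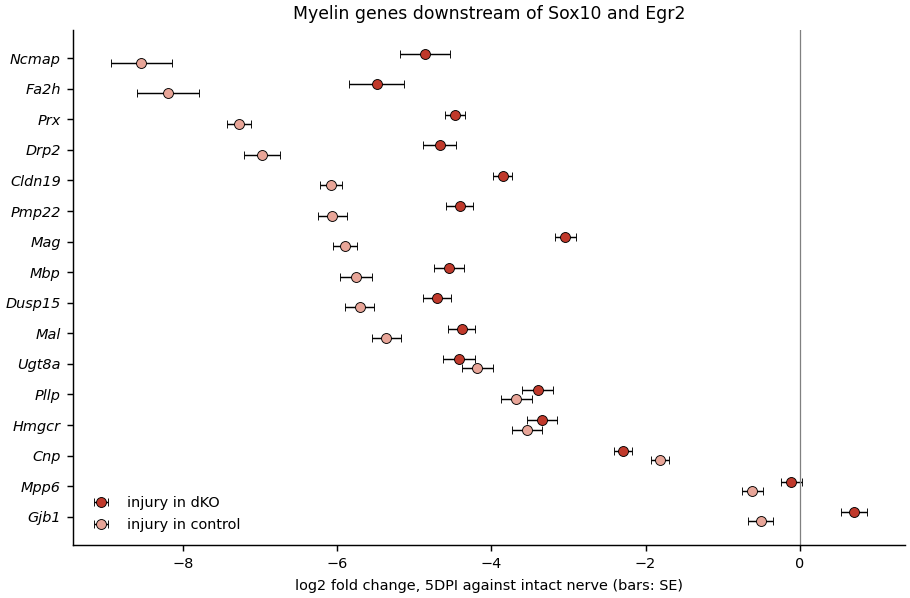
Log2 fold change of 16 of the 18 myelin genes, 5DPI against intact nerve, in dKO (dark) and control nerve (light), with SE. In 14 of these 16 the dKO point lies to the right of the control point, and Gjb1 stands at 0.71 in dKO and -0.51 in control nerve.

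A list of 12 genes was taken as opponents of the myelin state, and that role was not tested for any of them. Of these 12, 6 rose and 1 fell in dKO nerve after injury (median 0.73), and 8 rose and 0 fell in control nerve (0.69). Of all tested genes 44.7% were called after injury in dKO and 46.8% in control nerve. At 5DPI 4 of the 12 were lower and 0 higher in dKO than in control nerve: Jun, Sox2, Ezh2 and Notch1. The median log2 change of the 12 was 0.008, with values from -1.26 to 1.12. Over all genes 8.97% were lower and 3.12% higher. Jun, the repair factor, had 294 ± 3.33 CPM in dKO and 501 ± 43.2 CPM in control nerve at 5DPI (SD, n = 3 each; log2 change -0.77, SE 0.13, adjusted p = 0.00119). Sox2, a factor of immature Schwann cells, had 59.1 ± 3.497 CPM in dKO and 141 ± 29.3 CPM in control nerve (log2 change -1.26, SE 0.15, adjusted p = 0.000102). Ezh2, a histone methyltransferase, differed by -1.12 (adjusted p = 6.42e-05), and Notch1, named after its value was seen, by -0.74 (adjusted p = 0.000752). With the set term 2 of the 12 were lower.

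Relatives of the members were measured as well. Of 13 tested genes of the EGR, SOX, POU, TEAD, NFAT and YY families, 2 rose and 6 fell in dKO nerve with injury (median -0.43), and 2 rose and 6 fell in control nerve (-0.39). Between genotypes at 5DPI 1 was higher and 3 were lower in dKO (median 0.16). Shares of all tested genes called were 44.7% and 46.8% with injury in dKO and control nerve, and 12.1% between genotypes at 5DPI. Tead4 had 15.9 ± 2.79 CPM in dKO and 36.9 ± 4.52 CPM in control nerve at 5DPI (SD, n = 3 each; log2 change -1.22, SE 0.15, adjusted p = 0.000106), and fell more with injury in dKO than in control nerve (difference -1.30, SE 0.21, adjusted p = 0.00309). Tead2 rose with injury by 1.10 in dKO and 2.07 in control nerve (adjusted p = 2.27e-05 and 3.63e-08) and was lower in dKO at 5DPI (-0.61, adjusted p = 0.0107). Both lines of Tead1 had overlapping groups at 5DPI. Tead3 fell by 1.74 in dKO and 1.44 in control nerve, and Nfat5 by 1.04 in dKO and 1.19 in control nerve (adjusted p at most 4.26e-05).

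Of 17 partner genes, among them chromatin enzymes, YAP and TAZ and calcineurin subunits, 1 rose and 8 fell in dKO nerve after injury (median -0.12), and 5 rose and 4 fell in control nerve (0.18). Yap1 fell by 0.84 in dKO and by 0.78 in control nerve (adjusted p = 1.69e-05 and 2.29e-05). At 5DPI 2 partners were lower in dKO, Rcan2, a calcineurin regulator (-0.89, adjusted p = 0.0176), and Smarca4, a chromatin remodeller (-0.51, adjusted p = 0.00695). These counts and those of the next list stand beside 44.7% and 46.8% of all genes called with injury in dKO and control nerve. Between genotypes at 5DPI the share was 12.1% (3.12% higher and 8.97% lower). Of 15 genes of the signals that start myelination, 1 rose and 7 fell in dKO (median -0.22), and 1 rose and 8 fell in control nerve (-0.40). Lgi4, a secreted ligand of Schwann cells, fell by 1.39 in dKO and by 1.66 in control nerve (adjusted p = 3.51e-06 and 4.53e-07). Its receptor gene Adam22 fell by 1.58 in dKO and fell by 1.92 in control nerve (adjusted p = 2.40e-07 and 2.43e-08). At 5DPI Nrg1, the growth factor that signals through ErbB receptors, had 5.402 ± 1.99 CPM in dKO and 0.933 ± 0.691 CPM in control nerve (SD, n = 3 each; log2 change 2.55, SE 0.59, adjusted p = 0.0113). Mtor, a growth kinase, was also higher in dKO (0.85, adjusted p = 0.0121), and Adam10, a membrane protease, was lower (-0.60, adjusted p = 0.0373).

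The nerve is a mixed tissue, and fewer cells of a type cannot be told apart from less RNA per cell. At 5DPI 5 of 10 Schwann cell markers were lower and 0 higher in dKO nerve (median -0.77), beside 8.97% lower and 3.12% higher over all genes. The summed level of the markers was 1794 to 1974 CPM in dKO and 3001 to 4085 CPM in control nerve. In intact nerve the sum was 2461 to 2637 CPM in dKO and 2526 to 3792 CPM in control. None of the 10 markers was at 0 in any library. Sox10 was lower in dKO at 5DPI like these markers, and Egr2 and 12 of the 18 targets were higher. The lists of markers and of targets share 1 gene. The 12 macrophage markers summed to 1502 to 2006 CPM in dKO and 1520 to 2408 CPM in control nerve at 5DPI, and to 347 to 497 CPM in dKO and 328 to 485 CPM in control intact nerve, and none was at 0. The 10 fibroblast markers summed to 13836 to 16247 CPM in dKO and 8042 to 12758 CPM in control nerve at 5DPI. The medians of the endothelial, mural, muscle, fat, perineurial and lymphocyte lists at 5DPI were 0.52, 1.03, 1.77, 0.39, 0.50 and -0.32, dKO against control. The part of such shifts in the members' changes was not tested.

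Genes with the most similar pattern were taken by Pearson's r of log2 CPM over the 12 libraries, 3 for each member. These libraries include injured and intact ones, so r is set largely by that contrast and is given as a description. Egr2 was closest to Anks1 (r = 0.995), Clstn1 (0.994) and Daam2 (0.992). Sox10 was closest to Got2 (0.987), Atp6v0a1 (0.985) and Dnm2 (0.984), and Pou3f1 to Dennd1b (0.990), Exosc9 (0.987) and Gdi2 (0.986). Pou3f2 was closest to Abca8a (0.980), Sorcs1 (0.976) and Mgst3 (0.976), Nab1 to Ankrd40 (0.995), and Nab2 to Tmem8b (0.986). Both lines of Tead1 were closest to each other (0.984), Yy1 was closest to Zfp687 (0.985), and Nfatc4 to Wnt9a (0.979).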

How the data were processed

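RNA of 12 sciatic nerve samples was sequenced from polyA libraries (Ion Total RNA-Seq Kit v2, per the labels). The authors deposited raw counts of reads for each gene model, under its symbol; mm10, DESeq2 and R 4.2.1 are named in the submitters' processing notes, and the sources used here do not give the aligner, counter, strand or annotation. Their normalized table was not used. The test was edgeR 4.0.16 (R 4.3.3): filterByExpr (minimum count 10), TMM factors, 1 robust quasi-likelihood model of 4 group means, F-tests, and Benjamini-Hochberg adjustment over all 22384 models; SE is the size of the log2 change over the square root of F. Adjusted p-values are edgeR's unless another tool is named.

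Alternatives were DESeq2 1.42.0, limma-voom (limma 3.58.1), and other scaling factors, filters and thresholds. Further fits used only the compared groups, a replicate block within genotype, or each library left out. Chosen after seeing the data were both Tead1 lines summed and a replicate block across genotypes. The library set term assumes that the only control library of the second set varies like the others. Its size is estimated from the control 5DPI libraries alone. Members and lists were chosen with earlier results of these data known. Every member was named, and of each list up to 4 genes by p in the injury comparison of control nerve and up to 2 by p between genotypes at 5DPI, not all of which are printed, and others where said. Pairs of replicates differed beyond counting noise. P-values measure the spread between these samples only. Scripts were tested on simulated data.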

Additional observations from a re-analysis of the deposited data

Results flagged for a closer look

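Egr2 fell less with injury in dKO than in control nerve: the test of the difference of both injury changes gave a log2 value of 1.42 (adjusted p = 0.0158, edgeR), from a change of -2.36 in dKO and -3.78 in control nerve. Each of the 3 dKO libraries at 5DPI lay above each of the 3 control libraries. The call was lost without dKO intact replicate 4 (adjusted p = 0.0502) and without dKO 5DPI replicate 3 (adjusted p = 0.0536). It was also lost with the replicate block within genotype (adjusted p = 0.0553). That block joins libraries by number, which need not mean the same mouse. The control samples numbered 1 differ in Xist, with 10712 counts at 5DPI and 3 in intact nerve. The second library set holds all dKO 5DPI libraries and 1 control library, and with a term for it the value was 1.72 and not called (adjusted p = 0.0564).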

How the results depend on the processing

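Counts of called members kept within 1.5 times under each alternative in intact nerve (0) and in control nerve after injury (8 in the main fit). In the latter 7 were called with the replicate block within genotype and at a threshold of 0.01. After injury in dKO 8 were called in the main fit, 7 with upper-quartile factors and 5 with the library set term. Between genotypes at 5DPI 3 were called in the main fit, 2 at a threshold of 0.01 and 1, Egr2, with the set term. For the difference of injury changes (1, Egr2) DESeq2 called 2. The block within genotype, the set term and a threshold of 0.01 called 0. With each library left out the counts ran from 0 to 2 for that difference and from 2 to 3 at 5DPI. Deviations from group means of same-numbered injured and intact samples had r of 0.12, 0.10 and -0.01 in dKO nerve. In control nerve r was -0.09 and -0.005, and other pairs reached 0.10. Such values cannot show whether same-numbered samples came from the same mouse. In control nerve the samples numbered 1 had 10712 counts of Xist at 5DPI and 3 in intact nerve. Their Y-linked counts were 244 and 3068, so these samples were not of 1 mouse alone, and the replicate block within genotype still joins them. With the replicate block within genotype Egr2 gave a difference of 1.25 (adjusted p = 0.0553). In that fit Sox10 fell by 0.62 with injury in control nerve (adjusted p = 0.0532), and the first line of Tead1 was not called there (adjusted p = 0.0564). With the block across genotypes, chosen after seeing the data, Sox10 between genotypes at 5DPI gave -0.63 (adjusted p = 0.0694).

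The results that changed sign were not called in any fit. After injury in dKO Nfatc4 was 0.084 with upper-quartile factors, and at 5DPI between genotypes Yy1 was 0.044 with them. In intact nerve Pou3f2 was 0.0093 with limma-voom, and the first line of Tead1 0.014 with the block across genotypes. The second line was -0.015 with DESeq2 and with DESeq2 factors and -0.020 with upper-quartile factors. For the difference of injury changes the set term gave 0.081 for Pou3f1, 0.023 for Nab1 and 0.27 for Nab2. Upper-quartile factors gave 0.031 for Nab1, 0.12 for Nab2 and 0.10 for Yy1. DESeq2 and its factors gave 0.023 for Nab2 and 0.017 and 0.020 for Yy1. A stricter filter gave 0.011 for Nab2 and 0.0056 for Yy1, and the block within genotype 0.054 for Yy1. With libraries left out, Nfatc4 ran from -0.30 to 0.29 after injury in control and Nab2 from -0.082 to 0.17 at 5DPI. In intact nerve Egr2 ran from -0.041 to 0.35, Pou3f2 from -0.18 to 0.23, Nab1 from -0.27 to 0.025, the Tead1 lines from -0.089 to 0.063 and -0.073 to 0.071, and Yy1 from -0.11 to 0.054. The difference ran from -0.24 to 0.061 for Nab1, -0.15 to 0.10 for Nab2, -0.10 to 0.043 for Yy1 and -0.38 to 0.22 for Nfatc4. The cause was not tested.

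Upper-quartile factors moved the median of all genes by 0.14 after injury in dKO, 0.11 at 5DPI and 0.13 for the difference. Genes called at 5DPI numbered 515 with the set term, 1386 with the block across genotypes and 1577 to 4225 with libraries left out (2707 in the main fit). For the difference they numbered 172 with the set term, 290 with the block within genotype and 352 to 1276 with libraries left out. The main fit called 650 for it, and DESeq2 1096. After injury in dKO 4299 were called with the set term (9997 in the main fit), and in intact nerve 0 to 12 over all fits (1 in the main fit). With Schwann cell markers in place of Sox10 as denominator, the log2 ratio of Egr2 changed with injury by -1.94 in dKO and -3.81 in control nerve (-0.65 and -2.96 with Sox10), and between genotypes in intact nerve by 0.39 (-0.06 with Sox10). The lowest member count, 102, bounds the precision of Pou3f2.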
